A study of Drosophila melanogaster with 10 samples.

Results

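The insulin and TOR signalling genes described here are InR, chico, Akt, foxo, Thor, Tor, raptor, S6k and REPTOR, measured by RNA sequencing in Drosophila melanogaster S2 cells. The members were taken by gene name from 3 deposited tables of library values. All 9 were found, 8 under their own name and Akt, listed as Akt1, by its identifier, among 17869 genes in the tables of set 1 and 11799 in the table of set 2. S2 is a cultured line derived from late embryos, and all groups were transfected with 2 proneural proteins that bind DNA together, Achaete (Ac) and Daughterless (Da). Set 1 held 2 libraries each of 3 groups. These were the Ac variant R29G with the control knockdown (Luc KD), H2A.Z knockdown (H2A.Z KD) with wild-type Ac (Ac WT), and Luc KD with Ac WT. Set 2 held 2 libraries each of Arp6 KD and its own Luc KD, all with Ac WT. H2A.Z is a histone variant encoded by His2Av, and Arp6 belongs to the complex that places it in chromatin. Each set 1 group has 1 library in table A and 1 in table B. No label ties the libraries to separate cultures, so each p-value reflects how these libraries varied, and that variation may be technical.

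In the insulin pathway, binding of insulin-like peptides to the receptor InR recruits the adaptor Chico, which activates PI3 kinase and, through Pdk1, the kinase Akt. Akt keeps the transcription factor Foxo out of the nucleus and relieves the TSC complex's inhibition of TOR complex 1, which holds the kinase Tor and its substrate-binding subunit Raptor. TOR complex 1 phosphorylates S6k and Thor (4E-BP, a repressor of cap-dependent translation) and restrains the transcription factor REPTOR, while nuclear Foxo raises transcription of InR and Thor in starved flies.

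Coordinates of the genes, in build BDGP6, were the same in the files and the annotation. On 3R are InR (21570248 to 21619321, minus strand), Akt (16099228 to 16105670, plus), foxo (14056945 to 14087978, plus) and REPTOR (24557368 to 24582864, minus). On 2L are chico (10242512 to 10247078, minus), Thor (3478434 to 3479612, plus) and Tor (13004480 to 13013197, plus). S6k lies on 3L (5797549 to 5810931, minus) and raptor on X (6082634 to 6090201, minus). The values are given per gene, and whether reads in introns were counted is not given. Levels per kb of exon assume that they were not. The annotated exons of raptor share 1669 bases with Mipp2 on the same strand and 241 with an antisense RNA, and those of chico share 380 with an antisense RNA, so these counts are uncertain. The exons of the other 7 genes share no base with another gene. The spans of InR, S6k and REPTOR overlap other genes without shared exon bases, which matters if reads in introns were counted.

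Library totals ran from 24500413 to 33712374 reads in set 1 and from 9396318 to 10608470 in set 2. The relative counting error of a member in 1 library was 0.769% to 2.51% in set 1 and 1.60% to 4.17% in set 2, which covers counting error only. His2Av in H2A.Z KD stood at 26.2% of its Luc KD level in table A and 13.9% in table B. Arp6 in Arp6 KD stood at 79.8% of Luc KD in replicate 1 and 22.0% in replicate 2, so the library labelled Arp6 KD replicate 1 kept most of its Arp6 RNA. The transfected genes also varied, with da in H2A.Z KD at 69.6% and 70.2% of Luc KD, and in Arp6 KD at 45.9% (replicate 1) and 81.7% (replicate 2). For ac these values were 81.5% and 105% in H2A.Z KD and 48.5% and 92.9% in Arp6 KD. All 10 hemocyte markers had reads in both sets. Their summed scaled level was 597962 to 788250 in H2A.Z KD, against 490450 to 610465 in Luc KD of set 1, and 238479 to 262938 in Arp6 KD, against 205747 to 223626 in Luc KD of set 2. Summed neuron markers were 872 to 890 in H2A.Z KD and 872 to 887 in Luc KD, and the 3 fat body markers summed to 3.38 to 6.10 in H2A.Z KD and 2.56 to 4.08 in Luc KD, with Lsp1alpha at 0. The largest values in the hemocyte sums of H2A.Z KD were Col4a1 (317198 and 224103 in tables A and B), vkg (162598 and 112561) and Hml (150364 and 133278). These were not called by the main test. Within the hemocyte list the receptors NimC1 (log2 difference 2.58, limma adjusted p = 5.83e-04) and eater (0.71, 0.0190) were called in H2A.Z KD. Summed crystal cell markers were 146 to 371 in H2A.Z KD and 84.3 to 186 in Luc KD. The part of these markers, of ac and of da in the results was not tested.

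All 9 genes were transcribed in every library. Levels are compared between genes only per kb of exon, as scaled reads per kb. In set 1, Thor averaged 14287 ± 3930 (SD over 6 libraries), S6k 2723 ± 339 and Akt 1349 ± 91.6. These 3 stood apart, with ranges that did not overlap each other or the next gene. REPTOR (691 ± 92.5), InR (634 ± 111), Tor (623 ± 101), chico (567 ± 63.5) and foxo (480 ± 81.6) followed, each overlapping its neighbour in the order. Raptor was lowest at 282 ± 26.7, below foxo in 6 of 6 libraries without overlap. Thor ranked at the 98.9th percentile of genes and raptor at the 57.1st.

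In set 2 the same 3 genes led. Thor averaged 940 ± 104 per kb (SD over 4 libraries), S6k 728 ± 50.6 and Akt 402 ± 17.3. Tor (221 ± 8.26), foxo (216 ± 16.8), REPTOR (191 ± 6.76), chico (188 ± 7.11) and InR (175 ± 17.4) overlapped their neighbours, and raptor was lowest at 87.4 ± 5.18. The 2 sets are scaled separately, so a level in one is not comparable with a level in the other. The order inside the middle group differed between the sets, and not only among genes that overlapped. Chico was above foxo in 6 of 6 libraries of set 1, while in set 2 foxo had the higher mean. InR had a higher mean than foxo and Tor in set 1. In set 2 its range (155 to 190) lay below those of foxo (193 to 229) and Tor (210 to 230). The cause of the changed order was not tested.

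**Figure D1:**
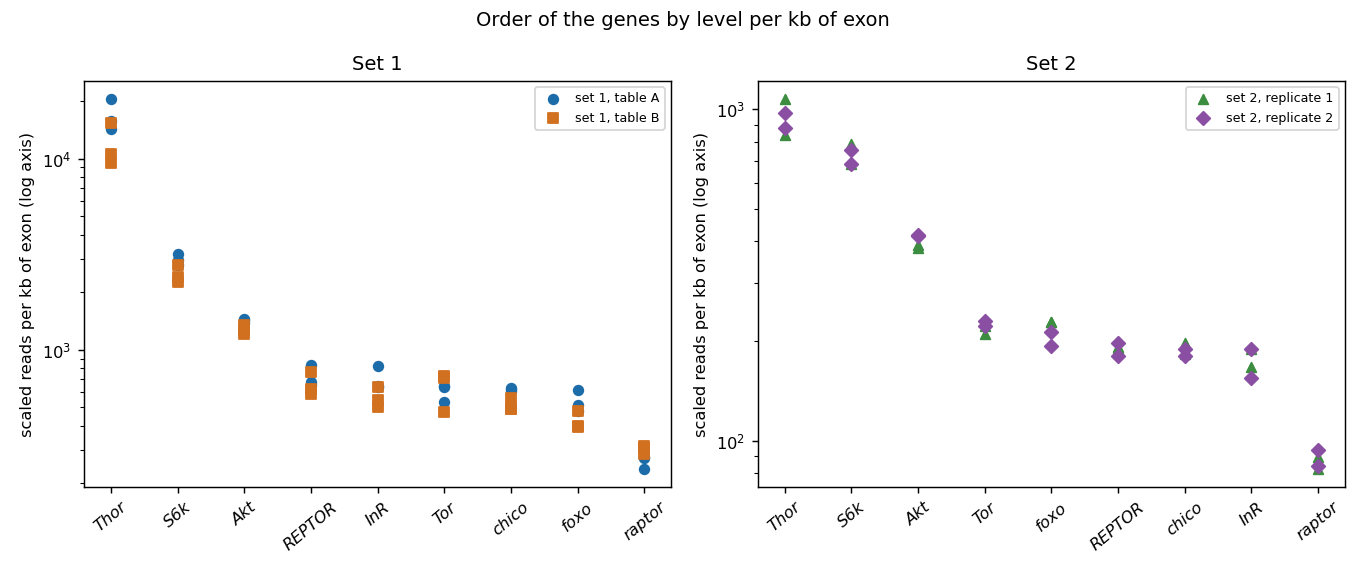
Scaled reads per kb of exon (log axis) for each gene, in descending order of the set mean, with 1 point per library (6 in set 1, left, and 4 in set 2, right). Thor, S6k and Akt lead and raptor is lowest in both sets, while the 5 genes between them overlap their neighbours.

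In H2A.Z KD the log2 differences of the 9 genes ran from -0.45 (Tor) to 0.53 (Thor), and none passed the main test. That test was limma on log2(value + 1) over all 11942 genes tested, adjusted by the Benjamini-Hochberg method at 0.05. It called 0 of 9 members, where 4.65% of all genes were called, and 2 members (Tor and REPTOR) had an unadjusted p under 0.05, as did 25% of all genes (2987). In level, 8 were higher in H2A.Z KD and Tor was lower. The members' median log2 difference was 0.21, beside -0.01 over all genes. When the table was included as a block, 6 of 9 were called, 5 higher (InR, foxo, Thor, S6k and REPTOR) and 1 lower (Tor). In that fit 37.7% of all genes were called, 18.4% higher and 19.3% lower. Leaving out 1 library at a time, the blocked fit called 4 (without Luc KD of table B) to 7 (without H2A.Z KD of table A) of the 9, and those fits called 22.7% and 40.7% of all genes. Without the block, leaving out a library brought the main test's 555 calls over all genes to 4 to 92. The limma calls with the block rest on its intensity trend: without the trend, the same blocked fit called 0 of the 9 and 0 of all genes. edgeR with the block called 6 of the 9 and 4671 genes in all. It tested only genes that passed its own filter, which left out some low genes that limma tested. Its share of genes called is therefore not out of 11942. With few residual degrees of freedom edgeR too leans on spread borrowed across genes. The samples are bulk cultures, in which fewer cells of a type and less RNA per cell cannot be told apart.

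At the receptor end of the pathway, InR had 9378 and 7227 scaled reads in H2A.Z KD (tables A and B), against 7305 and 5724 in Luc KD. The H2A.Z KD library was higher within each table, yet the groups overlapped, because table A read higher than table B in every group. The log2 difference was 0.35 (SE 0.17, limma adjusted p = 0.261), and with the block its adjusted p was 1.09e-04. Chico, the receptor's adaptor, had 2220 and 2010 in H2A.Z KD, against 2184 and 1756 in Luc KD. Its groups overlapped, with a difference of 0.11 on the log2 scale (limma adjusted p = 0.710).

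Akt, the kinase through which the receptor signals onward, had 7115 and 6609 scaled reads in H2A.Z KD and 6974 and 5944 in Luc KD. Its log2 difference of 0.09 had a 95% interval from -0.16 to 0.34, or from -0.03 to 0.21 with the block. Chico and Akt were not called with or without the block. Foxo, the transcription factor that Akt inhibits, had 2542 and 1984 scaled reads in H2A.Z KD, against 2115 and 1621 in Luc KD. Each H2A.Z KD library exceeded the Luc KD library of its table, by 0.27 and 0.29 on the log2 scale (limma adjusted p = 0.375, with the block 0.00306). Without Luc KD of table B the blocked foxo call was lost (adjusted p = 0.0671).

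Thor, the translation repressor that is both a foxo target and a TOR substrate, had the largest difference of the 9 genes. It had 15372 and 11535 scaled reads in H2A.Z KD, against 11877 and 7115 in Luc KD. The table B library of H2A.Z KD lay below the table A library of Luc KD, so the groups overlapped. The log2 difference was 0.53 (SE 0.27, limma adjusted p = 0.265; with the block 1.41e-05), from 0.37 within table A and 0.70 within table B. With 1 library left out at a time the blocked value ran from 0.38 (without Luc KD of table B) to 0.69 (without Luc KD of table A) and was called in 6 of 6 fits. Without the block it ran from 0.16 to 0.90 and was called in 0 of 6.

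Tor, the kinase of both TOR complexes, was the only member lower in H2A.Z KD. It had 4250 and 3779 scaled reads there, against 5108 and 5854 in Luc KD. Both H2A.Z KD libraries lay below both Luc KD libraries, a separation found in 27% of all genes in this direction. The log2 difference was -0.45 (SE 0.11, limma adjusted p = 0.0656), and with the block the adjusted p was 1.42e-04. The authors' deposited table gave -0.45 with an adjusted p of 0.00604, and DESeq2 on the recovered reads gave 0.0140 for Tor and 0.0429 for REPTOR, the only members it called, where it called 16.6% of all genes. Within table A the difference was -0.27 and within table B -0.63. Leaving out 1 library at a time, the blocked value ran from -0.61 (without H2A.Z KD of table A) to -0.28 (without H2A.Z KD of table B).

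Raptor, Tor's partner in TOR complex 1, had 1962 and 2178 scaled reads in H2A.Z KD and 1699 and 2030 in Luc KD. Its log2 difference was 0.15 (limma adjusted p = 0.493, with the block 0.0727), and reads shared with Mipp2 could not be separated. Per kb of exon, Tor stood at 1.92 and 1.54 times raptor in the H2A.Z KD libraries, against 2.67 and 2.56 times in Luc KD. In the R29G libraries the ratio was 2.40 and 2.27.

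Among the substrates of TOR complex 1, S6k had 15465 and 13639 scaled reads in H2A.Z KD and 14397 and 11003 in Luc KD. Its groups overlapped, and its log2 difference was 0.21 (limma adjusted p = 0.439, with the block 0.00952). The blocked call held in 4 of 6 fits with 1 library left out and was lost without H2A.Z KD of table B (adjusted p = 0.0805) and without Luc KD of table B (0.329). REPTOR had 5944 and 5480 scaled reads in H2A.Z KD, against 4845 and 4193 in Luc KD. It was the only member whose H2A.Z KD libraries both lay above both Luc KD libraries, as did 25% of all genes. Its log2 difference was 0.34 (SE 0.10, limma adjusted p = 0.102, with the block 2.08e-04). The authors' deposited table gave 0.34 (adjusted p = 0.0342), and there Tor and REPTOR were the 2 of the 9 genes past 0.05, as were 17.2% of the features with an adjusted p in that table.

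**Figure D2:**
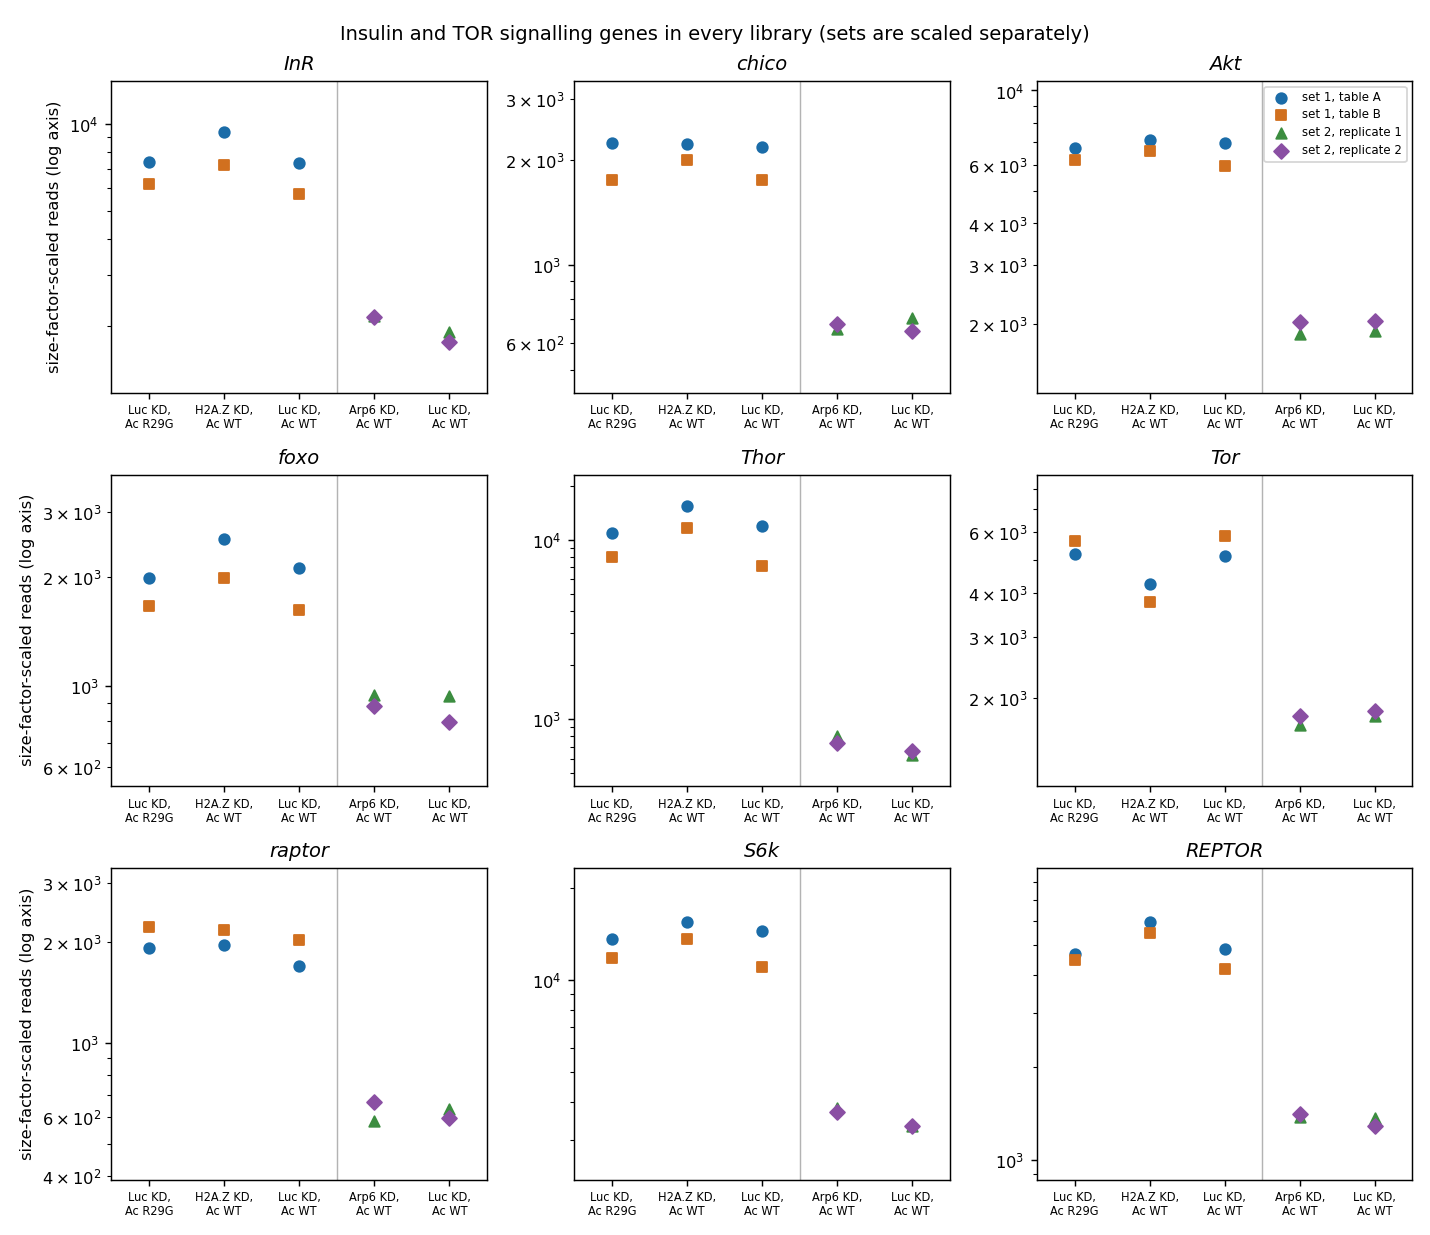
Scaled reads (log axis, separate scale per gene) of the 9 genes in all 10 libraries, by group, with set 1 left and set 2 right of the line. Marker and colour give the table or replicate. In H2A.Z KD each table's point lies above its Luc KD point for 8 genes and below it for Tor.

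All 9 genes differed in the same direction within both tables, 8 higher and 1 lower in H2A.Z KD, as did 37.4% and 38.6% of all genes in those directions. The scaling moves these values. Scaling by the median put the median of all genes at 0.11 on the log2 scale, and with the block it then called 9 of 9 and 36.6% of all genes. Quantile normalization put that median at -0.03 and made Akt (-0.05) and S6k (-0.01) lower in H2A.Z KD. InR, chico, foxo, Thor, raptor and REPTOR stayed higher and Tor lower under all 3 scalings.

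**Figure D3:**
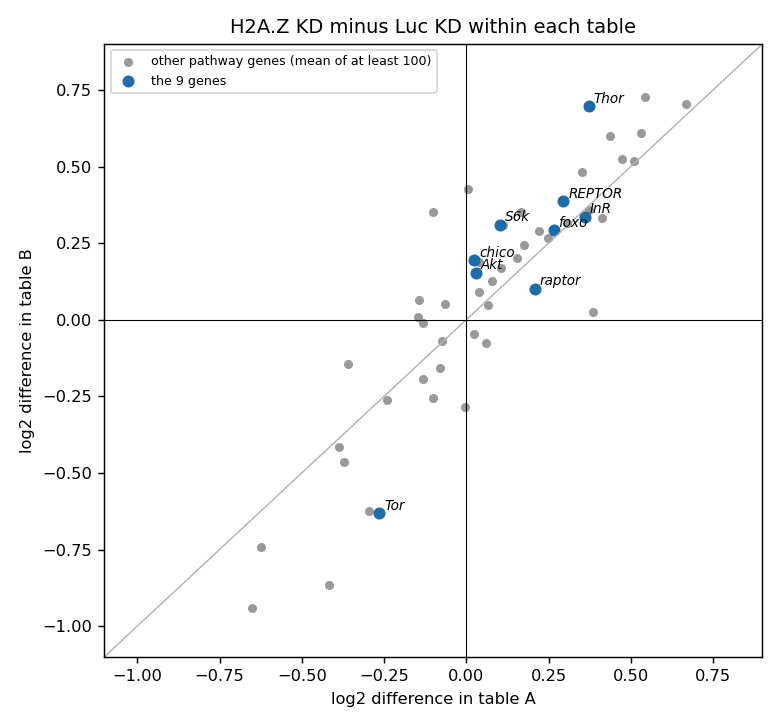
Log2 difference between H2A.Z KD and Luc KD within table A (horizontal axis) and within table B (vertical axis), for the 9 genes (blue, named) and 44 other pathway genes with a mean of at least 100 scaled reads in H2A.Z KD (grey). Points on the diagonal differed equally in both tables. All 9 genes and 38 of the 44 have the same sign in both tables, and Thor and Tor differ more in table B.

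Of 57 other genes of the pathway, 56 were matched in set 1 and 50 were tested. In H2A.Z KD the main test called 3 higher and 3 lower (2.45% and 2.19% of all genes), and the block 18 higher and 7 lower (18.4% and 19.3% of all genes). The 6 main calls did not hold when a library was left out: 2 (Lip4 and Iml1) remained without H2A.Z KD of table A, and 0 without any other library. The median log2 difference of the 50 was 0.08, beside -0.01 over all genes. The counts by role that follow are from the blocked fit, are to be read against those shares, and were not tested as lists. With quantile normalization and the block the 25 calls fell to 16, and without the intensity trend to 0.

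On the insulin side, 6 of 10 genes of the PI3K arm were higher in H2A.Z KD and 0 lower, beside 18.4% and 19.3% of all genes. Pdk1, the kinase that phosphorylates Akt, had 11284 and 9381 scaled reads in H2A.Z KD, against 8121 and 6524 in Luc KD (log2 difference 0.50, limma adjusted p = 0.113, with the block 2.03e-06). Step, a cytohesin that acts in insulin signalling, was called by the main test (0.42, limma adjusted p = 0.0456) and was named after its value was seen, like ImpL2, Ilp6, gig, Atg1 and the TOR complex subunits below. Of the ligands and binding proteins, 6 of 10 were tested and 1 was called, the secreted insulin-binding protein ImpL2 (log2 difference 0.22, from 0.01 within table A and 0.43 within table B). Ilp6 was the insulin-like peptide with appreciable reads, 1307 and 1050 in H2A.Z KD and 1381 and 1171 in Luc KD, and the other tested peptides had under 10 in each of these libraries.

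On the inputs to TOR, among amino acid sensing genes 4 of 11 were lower in H2A.Z KD and 1 higher. Among TSC, Rheb and energy sensing genes 3 of 9 were lower and 2 higher. Over all genes the shares were 19.3% lower and 18.4% higher. Iml1, a subunit of the GATOR1 complex that inhibits TOR complex 1, had 2044 and 1547 scaled reads in H2A.Z KD, against 3213 and 2973 in Luc KD. Its log2 difference was -0.80 (SE 0.14, limma adjusted p = 0.0318). Mio, a subunit of GATOR2, which opposes GATOR1, had 1031 and 859 in H2A.Z KD, against 1589 and 1437 in Luc KD (-0.68, limma adjusted p = 0.0326).

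Gig (TSC2), which inhibits TOR through Rheb, was lower too. It had 1836 and 1542 in H2A.Z KD, against 2450 and 2813 in Luc KD (-0.64, limma adjusted p = 0.0367). Path, an amino acid transporter of the SLC36 family, was the higher one, with 5905 and 8627 in H2A.Z KD, against 3721 and 5290 in Luc KD. Its log2 difference was 0.69 (limma adjusted p = 0.151, with the block 1.55e-07). The groups of path did not overlap, as was so for 25% of all genes in this direction. The TOR complex subunits Lst8, rictor and Sin1 gave 0 calls of 3, with log2 differences from -0.25 to -0.01.

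Of the genes listed as TOR outputs, 6 of 9 were higher in H2A.Z KD and 0 lower, with a median of 0.26 on the log2 scale. Over all genes the blocked fit called 18.4% higher and 19.3% lower. These are RNA levels, and the activity of TOR was not measured. Atg1, the kinase that starts autophagy, had 2106 and 2299 scaled reads in H2A.Z KD, against 1479 and 1603 in Luc KD (0.51, limma adjusted p = 0.0450). The 2 tested foxo targets of fat metabolism were both higher. Lip4, a lipase, had 3902 and 4514 in H2A.Z KD, against 2680 and 2727 in Luc KD (0.63, SE 0.10, limma adjusted p = 0.0268). Bmm, the triglyceride lipase Brummer, had 2770 and 2187 in H2A.Z KD, against 1917 and 1433 in Luc KD (0.57, limma adjusted p = 0.125, with the block 5.05e-06).

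**Figure D4:**
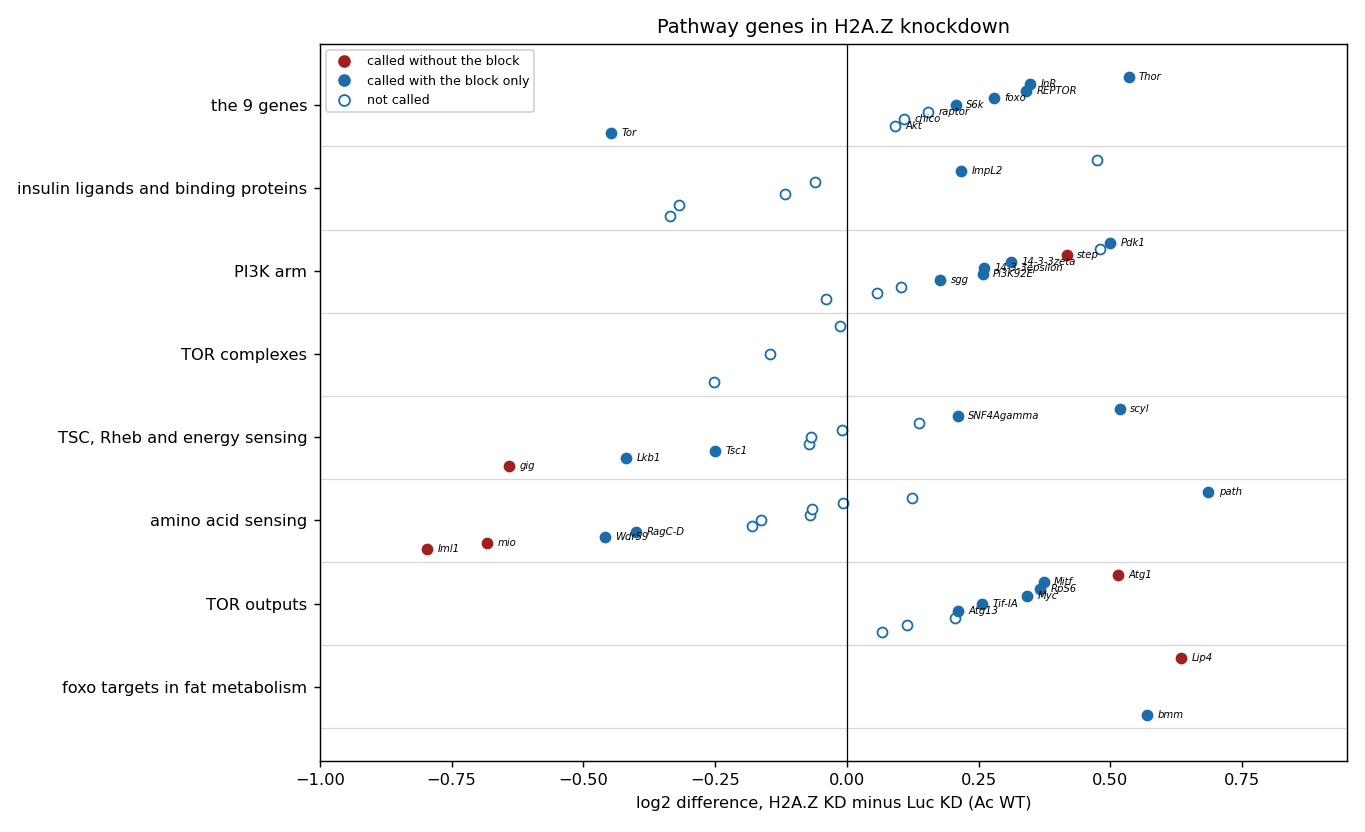
Log2 difference between H2A.Z KD and Luc KD (horizontal axis) of the 9 genes and the 50 other pathway genes tested, 1 point per gene, grouped by role. Red points were called by the main test, blue points only with the table as a block, and open points by neither; the 9 genes and the called genes are named. The genes listed as TOR outputs lie right of 0, and the genes called in amino acid sensing lie left of it except path.

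The R29G comparison asks whether the Ac variant changed these genes under the control knockdown, and it shares its Luc KD libraries with the H2A.Z KD comparison. None of the 9 genes was called by limma, with or without the block, where 0% and 0.62% of 11942 genes were called. Across all genes 240 had an unadjusted p under 0.05, edgeR called 0 and DESeq2 called 8; of the 9 genes, 0 had such a p. InR had 7389 and 6182 scaled reads in R29G (tables A and B), against 7305 and 5724 in Luc KD with Ac WT. Thor had 10823 and 7999 in R29G, against 11877 and 7115 in Ac WT. Both genes overlapped, and Thor was lower in R29G within table A and higher within table B.

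Tor had 5185 and 5675 scaled reads in R29G and 5108 and 5854 in Ac WT. Its log2 difference of -0.01 had a 95% interval from -0.27 to 0.25, or from -0.17 to 0.14 with the block. Raptor had 1922 and 2220 in R29G, against 1699 and 2030 in Ac WT. That was the largest difference of the 9, 0.15 on the log2 scale, higher in R29G in both tables, with a limma adjusted p of 1.00 (0.626 with the block). The other 7 lay between -0.03 (foxo) and 0.06 (InR). In 0 of 9 genes did the groups separate, against 23.4% of all genes, and 0 of the 50 other pathway genes were called with or without the block.

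In the Arp6 KD comparison, limma called 0 of 9 genes, where 0.0283% of 10605 genes (3) were called and 739 had an unadjusted p under 0.05. InR, Thor and S6k were the 3 members with such a p. InR had 2162 and 2151 scaled reads in Arp6 KD (replicates 1 and 2), against 1899 and 1758 in Luc KD. The groups did not overlap, and the log2 difference was 0.24 (SE 0.06, limma adjusted p = 0.614).

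Thor had 809 and 735 scaled reads in Arp6 KD, against 634 and 662 in Luc KD. Its log2 difference was 0.25 (SE 0.08, limma adjusted p = 0.652), with 0.35 between the replicate 1 libraries and 0.15 between those of replicate 2. The difference of S6k was also larger in replicate 1 (0.20 and 0.14 in replicates 1 and 2). Those of InR (0.19 and 0.29), foxo (0.01 and 0.14) and REPTOR (0.01 and 0.12) were larger in replicate 2. In replicate 1 Arp6 was the less depleted and da and ac the lower. The part of Arp6, da and ac in these differences was not tested. S6k had 3836 and 3697 in Arp6 KD, against 3348 and 3351 in Luc KD (0.17, SE 0.06, limma adjusted p = 0.693).

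Tor had 1677 and 1775 scaled reads in Arp6 KD and 1777 and 1836 in Luc KD, a log2 difference of -0.07 with a 95% interval from -0.21 to 0.08. REPTOR had 1375 and 1405 in Arp6 KD and 1364 and 1292 in Luc KD. Groups separated for 5 of 9 genes, 4 higher (InR, Thor, S6k and REPTOR) and 1 lower (Tor), as they did for 39.1% of all genes (18.6% higher and 20.4% lower). Chico, Akt, foxo and raptor overlapped, with log2 differences from -0.02 to 0.08. With the replicate number as a block limma called 0 of all genes. edgeR with that block called InR (adjusted p = 2.30e-05), Thor (0.00289) and S6k (0.00424), where it called 10.8% of all genes. For these genes, limma with the block gave adjusted p = 0.165, 0.219 and 0.186. The edgeR fit has few residual degrees of freedom, and its small p-values need not mean that the replicates were alike. It gave ac an adjusted p of 3.99e-30, with log2 differences of -1.04 and -0.11 in replicates 1 and 2. Of 47 other pathway genes tested, limma called 0, with or without the block. Set 2 was never fitted with set 1, so the difference between the Arp6 KD and H2A.Z KD responses was not tested.

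**Figure D5:**
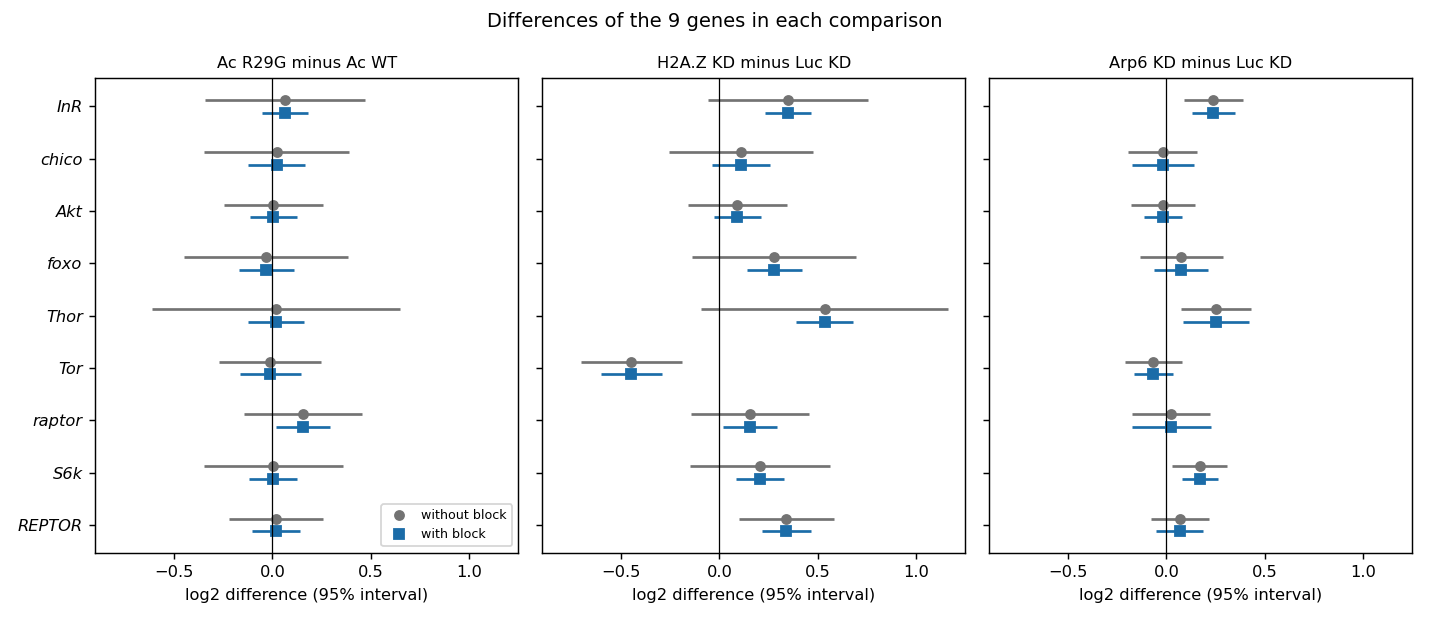
Log2 differences of the 9 genes (points) with 95% intervals (lines), for R29G minus Ac WT, H2A.Z KD minus Luc KD and Arp6 KD minus Luc KD, from limma without the block (grey) and with it (blue). The R29G points lie between -0.03 and 0.15. In H2A.Z KD the block narrows the intervals of the genes that differ between tables, such as Thor.

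Some of the genes also moved with each other across libraries. Over the 10 libraries, on log2(value + 1) with the mean of each set removed, Thor and S6k had a Pearson r of 0.98, InR and Thor 0.95 and InR and S6k 0.95. Weaker positive pairs were Akt with foxo (0.67) and chico with REPTOR (0.61). Tor ran opposite, at -0.90 with REPTOR and -0.75 with Thor. Raptor ran from 0.02 (with REPTOR) to -0.50 (with chico), and stood at -0.09 with Tor. These points share libraries, tables and groups, and the values describe these 10 libraries only. Among 7969 genes, the 3 most like InR were RpS19b (0.99), teq (0.99) and lncRNA:roX1 (0.99), and the 3 most like Thor were Dlc90F, eIF3j and Pabp2 (0.99 each). High values were not confined to these genes, as 364 of the 7969 exceeded 0.9 with InR and 438 with Thor. The shift between tables is part of them: table B lay below table A in all 3 groups for InR (by 0.26 to 0.38 on the log2 scale) and for Thor (by 0.41 to 0.74).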

How the data were processed

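The deposited values per gene were taken as size-factor-scaled, that is, reads divided by 1 factor per library. This was read from the values, as the column names give only the group and, in set 2, the replicate. Whole reads were recovered from 100% of values within 0.001 reads. The submitters' processing notes name Partek and BDGP6; the aligner, the counter, any use of strand and the kit of each library (of the 2 that the labels name) are not given here. For set 1, the reads of tables A and B were rescaled together with median-of-ratios size factors; set 2 kept its deposited values. Columns of tables A and B are not numbered, and the Luc KD columns there were taken as set 1 controls since they stand beside R29G. Left out were 6063 features without a gene identifier, 5578 of them transposable elements.

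The main test was trended limma 3.58.1 under R 4.3.3. It used log2(value + 1), kept genes whose mean reached 1, and adjusted p-values over all of them; the 3 groups of set 1 shared 1 estimate of spread. The design foresaw edgeR for raw counts and limma for scaled values. Alternatives on the recovered read counts used edgeR 4.0.16 and DESeq2 1.42.0. Deviations from group means correlated within tables at 0.62, 0.58 and 0.65 (9103 genes), so set 1 was read as paired by table, from the shared tables and these values, not from the labels. In set 2, with 2 pairs, the value was 0.50.

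The authors also deposited comparison tables with a mean signal, log2 fold changes, SEs, a score, p-values and adjusted p-values, per the file headers; the one of Ac WT over R29G runs opposite to the differences given here. Those tables list 9 of 9 members. Named pathway genes were at most 6 per comparison, by smallest p with the block, and exceptions are stated. The members and lists were chosen with earlier results of these data known. Intervals cover the spread between libraries. Sequences were not analysed here.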

Additional observations from a re-analysis of the deposited data

How the results depend on the processing

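For R29G, the count over all genes was 74 with the replicate block, 123 and 63 with median scaling or quantile normalization and the block, 141 with edgeR and the block, and 8 with DESeq2. Its small member differences changed sign: chico (-0.0009), Akt (-0.012), S6k (-0.027), Thor (-0.013) and REPTOR (-0.0026) with quantile normalization, and Akt (-0.012), S6k (-0.0118) and REPTOR (-0.0003) with median scaling, each the same with the block. They also did for Akt (-0.0054), S6k (-0.0105) and Thor (-0.0182) with edgeR, Akt (-0.0034) and S6k (-0.0041) with edgeR and the block, and Thor (-0.011) and S6k (-0.0024) with DESeq2.

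For H2A.Z KD, paired by table, the counts over all genes, the 9 members and the pathway lists were 4497, 6 and 25 with the replicate block. They were 898, 1 and 12 with median scaling, 4371, 9 and 29 with median scaling and the block, and 3813, 5 and 16 with quantile normalization and the block. edgeR with the block gave 4671, 6 and 27, and DESeq2 1381, 2 and 13. Without the intensity trend they were 2, 0 and 0, and 0 for each with the block as well, a setting chosen after seeing the data. Akt (-0.0453) and S6k (-0.011) changed sign with quantile normalization, with or without the block.

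For Arp6 KD, the count over all genes was 0 with the block, with no filter, with quantile normalization, without the trend and without the trend with the block. It was 243, 22 and 870 with the block and median scaling, quantile normalization or edgeR, and 16 with DESeq2. Members called were 1 (InR, median scaling and block) and 3 (edgeR and block), and pathway genes 1 and 6 in those fits. The cause of these changes was not tested.

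Leaving out each library, with and without the block, gave 0 to 325 genes for R29G (325 without H2A.Z KD of table A, with the block), 4 to 4861 for H2A.Z KD (4 to 92 without the block and 2699 to 4861 with it) and 0 to 5 for Arp6 KD. Members called in H2A.Z KD ranged from 0 to 7, and pathway genes from 0 to 28, or 0 to 1 for R29G (REPTOR-BP). For R29G the log2 differences ran from -0.1122 to 0.2396 for InR, -0.1581 to 0.1991 for chico, -0.1108 to 0.1198 for Akt, -0.2224 to 0.1612 for foxo, -0.3522 to 0.3869 for Thor, -0.1198 to 0.0966 for Tor, -0.1892 to 0.1986 for S6k and -0.088 to 0.1202 for REPTOR. For H2A.Z KD, Akt ran from -0.0244 to 0.2062 and chico from -0.0482 to 0.2659. Without the block, InR ran from 0.16 to 0.54 there, foxo from 0.09 to 0.47, S6k from 0.01 to 0.40, raptor from 0.03 to 0.28, REPTOR from 0.24 to 0.44 and Tor from -0.55 to -0.35, each called in 0 of 6 fits. For Arp6 KD, Akt ran from -0.0782 to 0.0419, chico from -0.079 to 0.0421, foxo from -0.0443 to 0.1949 and raptor from -0.0673 to 0.1152. In a fit that leaves a group with 1 library, that library is assumed to vary like the other groups. In set 2 this could not be fitted with the block, which leaves no residual degrees of freedom. With 2 libraries a group, few residual degrees of freedom remain, and blocked p-values lean on spread borrowed across genes. Counting error of the 9 genes was at most 4.17%.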

Other observations

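Within a library, Thor stood at 4.18 to 6.43 times S6k per kb of exon in the 6 libraries of set 1 and at 1.22 to 1.36 times in the 4 libraries of set 2. Thor stood at 18.7 to 24.7 times InR in set 1 and at 5.02 to 5.67 times in set 2. The ratios of Tor to raptor in the Luc KD libraries, by contrast, were 2.67 and 2.56 in set 1 and 2.49 and 2.74 in set 2. The ranges of the Thor ratios do not overlap between the sets, although both hold Luc KD cells with Ac WT. Thor has the shortest exon total of the 9 genes, 755 bases, and table, depth and any difference in library kit go with the set, so these cannot be told apart.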
